A study of Mus musculus with 8 samples.

Results

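The activity-induced immediate early genes described here are Fos, Fosb, Junb, Egr1, Egr3, Nr4a1, Nr4a3, Npas4, Arc and Homer1, taken by name from the RNA matrices. They are 10 of the 32285 genes in those matrices, and all 10 had at least 1 UMI (unique molecular identifier, a count of 1 captured RNA molecule) in every library. The nuclei came from the hippocampus of wild-type C57BL/6J pups, males by the study's methods, harvested at postnatal day 21 (P21). Their dams ate folic acid (FA) at either 2 mg/kg, the control diet (MF), or 20 mg/kg, the excess diet (HF), from before mating through gestation and nursing. The dams were recorded as aged 8 weeks when the diets began, and the study's methods give a range of ages that starts at 8 weeks. Each diet had 2 libraries (MF1, MF2, HF1, HF2), each made with the 10x multiome kit, which reads nuclear RNA (GEX) and open chromatin (ATAC) in the same nucleus. How many pups stand behind a library was not stated, and neither stimulation nor a behavioural task is recorded for any group.

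Immediate early genes are transcribed within minutes of synaptic activity, when calcium entering a neuron activates kinases that act on transcription factors already bound at their promoters, and no new protein is needed. Fos, Fosb and Junb encode subunits of the AP-1 transcription factor, Egr1 and Egr3 encode zinc-finger factors, Nr4a1 and Nr4a3 encode orphan nuclear receptors, and Npas4 encodes a factor known for its narrow dependence on calcium in neurons. Arc and Homer1 act at the synapse, Arc in the endocytosis of AMPA receptors and Homer1 as a scaffold of metabotropic glutamate receptors. Homer1 differs from the others in that its long isoforms are made constitutively and the activity-induced transcript is a short form of the same gene, and gene-level UMI counts do not separate them.

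Of 14297 nuclei in the matrices, 11518 passed the filters, between 2249 and 3473 per library, with median UMI counts of 6117 to 7053. Clusters were named from marker genes, so that each name stands for a marker-defined, X-like type: 825 CA1 and 402 CA3 pyramidal nuclei, 1867 granule nuclei of the dentate gyrus with mature markers (DG-M) and 980 with immature ones (DG-i), 779 inhibitory neurons (INH), 1283 astrocytes (AST), 919 oligodendrocyte progenitors (OPC), 631 oligodendrocytes (ODC) and 688 microglia (MG). EXC denotes all 4179 excitatory nuclei, which are the CA1, CA3, DG-M and DG-i nuclei and 105 others. A further 1462 nuclei had no name. Another 1161 lay in clusters whose median doublet score exceeded 0.05 and were left out of the types. The 10 genes and other activity genes were kept out of the clustering, since a cluster formed by them could not then be used to compare them. When they were returned, CA1 shrank to 543 nuclei, while EXC (4187), CA3 (405), DG-M (1870), INH (767) and MG (685) kept nearly the same sizes. Between 8 and 20 kept barcodes were shared by each pair of libraries, and 14.3 to 16.3% of nuclei per library exceeded the doublet score used for the alternative without doublets.

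Because promoter accessibility was measured in the same nuclei, the promoters of 4 genes are shown, chosen because results below turn on them. Fos and Nr4a1 had promoter signal that differed between types. Junb had RNA and promoter signal that were both higher in MG than in EXC, and Homer1 is the gene with constitutive isoforms. Each run is the 250 bases upstream of the RefSeq transcription start on GRCm38.p6, and capitals mark the 5-base core of the cyclic AMP response element (CRE), the site bound by CREB, written TGACG or, on the other strand, CGTCA.
Fos, chr12:85473640-85473889, + strand: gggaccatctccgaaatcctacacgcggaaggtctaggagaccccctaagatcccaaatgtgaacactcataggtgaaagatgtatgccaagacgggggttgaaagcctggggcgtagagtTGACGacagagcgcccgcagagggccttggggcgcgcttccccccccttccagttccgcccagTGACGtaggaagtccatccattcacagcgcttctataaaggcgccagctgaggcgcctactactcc
Nr4a1, chr15:101266596-101266845, + strand: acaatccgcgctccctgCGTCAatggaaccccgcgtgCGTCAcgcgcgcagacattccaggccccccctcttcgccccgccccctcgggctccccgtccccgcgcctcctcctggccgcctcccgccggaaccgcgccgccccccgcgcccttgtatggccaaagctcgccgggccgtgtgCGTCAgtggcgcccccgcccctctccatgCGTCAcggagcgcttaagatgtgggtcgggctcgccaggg
Junb, chr8:84978749-84978998, − strand: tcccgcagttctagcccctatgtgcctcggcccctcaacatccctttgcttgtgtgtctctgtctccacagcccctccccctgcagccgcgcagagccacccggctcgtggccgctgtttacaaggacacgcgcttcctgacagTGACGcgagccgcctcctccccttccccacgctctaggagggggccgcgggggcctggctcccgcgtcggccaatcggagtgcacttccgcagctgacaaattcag
Homer1, chr13:93303507-93303756, + strand: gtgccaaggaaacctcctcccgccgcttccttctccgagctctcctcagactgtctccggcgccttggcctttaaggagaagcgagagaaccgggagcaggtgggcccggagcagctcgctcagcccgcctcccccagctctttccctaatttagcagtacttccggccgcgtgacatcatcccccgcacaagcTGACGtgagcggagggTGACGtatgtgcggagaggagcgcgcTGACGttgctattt
All 4 windows lay inside an ATAC region with a peak in all 4 libraries. In Fos the cores began 129 and 66 bases before the start, and a TATAAA element began 33 bases before it. Nr4a1 held 4 cores, at 233, 213, 69 and 40 bases, all in the CGTCA orientation. Homer1 held 3, at 56, 40 and 14 bases, all TGACG, and Junb held 1, at 106 bases.

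Sequences were matched for 7 of the 10 genes, and those of Arc, Egr1 and Egr3 were not used here. Homer1 has a second RefSeq window (chr13:93307784-93308033), which overlapped no shared ATAC region and held no core, and its first window is the one counted. On that count each of the 7 held at least 1 CRE core on either strand, a motif present in 17.8% of all 32851 RefSeq promoter windows of that length and in 25.4% of the 16283 that overlapped a shared ATAC region. Besides the 4 shown, Nr4a3 held 4 cores, Npas4 held 2 and Fosb held 1, so that 5 of the 7 held 2 or more, against 3.90% of all windows and 6.49% of those that overlapped a shared region. The RefSeq starts of Npas4 and Nr4a3 lie downstream of the GENCODE starts, so that 250 and 152 bases of their windows are inside the transcript. Of the 5 windows that lay wholly or almost wholly upstream, 3 held 2 or more cores. The full palindrome TGACGTCA was in none of the 7 windows and in 1.55% of all. The serum response element, matched by its CC, A or T, GG form, was in none of the 7 and in 1.47% of all, and the AP-1 site (TGACTCA or TGAGTCA) was in none and in 4.46%. TATAAA was in the Fos window alone and in 7.59% of all windows. These are matches of letters in a fixed window of 250 bases and were not tied to binding in these nuclei. Sites further upstream were not searched, so a motif absent from a window may lie beyond it.

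Of the AP-1 genes, Fos and Fosb were too sparse to order the types. Levels are given as CPM, the UMIs of a gene scaled to the same total for each type and library, in the order MF1, MF2, HF1, HF2, and such a sum does not tell fewer expressing nuclei from less RNA per nucleus. Fos was sparse throughout: EXC nuclei had 4.09, 1.23, 1.68 and 0.791 CPM, from 81 UMIs in all. In AST it stood at 5.45, 3.94, 3.60 and 3.35 CPM, the highest mean of the 9 types (4.09 ± 0.94, SD, n = 4), but from 14 UMIs. INH ranged from 0.330 CPM in HF2 to 7.97 in MF1, so that a single library set its mean, and the ranges of neighbouring types overlapped. Fosb was lower still, between 0.395 and 1.86 CPM in EXC and with no UMI at all in AST or OPC.

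Junb had its highest level outside the neurons. In MG it stood at 76.6, 68.3, 103 and 56.2 CPM, from 99 UMIs. CA1, the next type, had 34.8, 17.1, 28.4 and 19.4 CPM, and the ranges of the MG and CA1 libraries did not overlap. DG-M had 24.1, 19.3, 18.0 and 11.8 CPM and CA3 had 18.6, 14.2, 23.8 and 19.0. ODC held the lowest level, 2.05 to 6.34 CPM. Junb was present in 83 of 688 MG nuclei (12.1%, exact 95% interval 9.72 to 14.7%) although MG had the lowest median depth of all types, 1751 UMIs a nucleus.

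Of the EGR genes, Egr1 had its highest mean in CA1 and Egr3 in DG-M. By mean, Egr1 was highest in CA1, with 64.7, 25.7, 41.7 and 24.7 CPM, followed by MG with 36.5, 17.1, 16.0 and 17.3 and CA3 with 37.2, 14.2, 19.6 and 14.8. The ranges of these types overlapped, and the MG level came from 32 UMIs, 20 of them in MF1. DG-M had 21.0, 16.4, 15.7 and 9.51 CPM. Egr3 had another order among the principal neurons: DG-M stood first with 30.0, 13.9, 21.6 and 17.2 CPM, CA1 had 20.2, 17.1, 18.1 and 12.7, and CA3 18.1, 14.8, 12.1 and 13.0. These Egr3 ranges overlapped. INH was well below, with 7.24, 7.56, 5.46 and 3.63 CPM, and its libraries did not overlap those of CA1, CA3 or DG-M.

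The NR4A receptors were split between the CA fields. Nr4a3 was a CA3 gene in these libraries, with 95.7, 85.7, 76.5 and 72.8 CPM there against 35.1, 31.6, 43.1 and 27.2 in CA1 and 7.15, 8.54, 13.7 and 5.40 in DG-M. It was detected in 284 of 402 CA3 nuclei (70.6%, interval 65.9 to 75.1%) and in 6.21% of DG-M nuclei, at median depths of 18676 and 7665 UMIs. DG-i nuclei had 27.6, 25.8, 21.5 and 25.2 CPM, above every DG-M library. Nr4a1 was highest in CA1, with 55.1, 36.8, 61.2 and 30.0 CPM, against 27.4, 23.6, 34.5 and 17.2 in CA3 and 5.24, 9.17, 5.39 and 3.60 in DG-M. It was present in 37.5% of CA1 nuclei. OPC, a glial type, had 18.2, 10.2, 16.0 and 16.2 CPM, above all 4 DG-M libraries, whereas MG had a single UMI of Nr4a1. The nuclei left without a name had a mean of 45.6 CPM, close to that of CA1.

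Npas4 was low in all types, and its glial sums were too small to compare with those of DG-M. CA1 had 7.78, 12.4, 13.7 and 10.2 CPM, CA3 had 6.02, 4.14, 12.1 and 6.03, INH had 6.52, 3.78, 2.73 and 2.64, and DG-M had 0.477, 0.949, 1.80 and 1.03. The AST, OPC and MG sums held 1, 2 and 1 UMIs and ODC had a UMI in 0 of 631 nuclei, which by the limit of 3 counts allows a share of up to 0.475% of nuclei with a UMI.

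The synaptic genes differed in their spread between libraries. Arc was highest in CA1, at 27.7, 9.84, 27.7 and 6.00 CPM, so that MF1 and HF1 stood above MF2 and HF2 whatever the diet. CA3 showed the same split (12.6, 3.55, 14.5 and 4.17 CPM), while DG-M stayed low in all 4 libraries (2.14, 2.85, 1.12 and 1.29). Arc was detected in 162 of 825 CA1 nuclei (19.6%, interval 17.0 to 22.5%) at a median of 12868 UMIs and in 26 of 1867 DG-M nuclei (1.39%, interval 0.912 to 2.03%) at 7665. ODC held 16.5, 10.3, 9.45 and 8.02 CPM of Arc, from 35 UMIs in 34 of 631 nuclei (5.39%, interval 3.76 to 7.45%). Markers of excitatory neurons in ODC stood at 25.5% of their EXC level and those of CA1 at 72.4%, and the part of such RNA in the ODC count was not tested. In MG, where the same lists stood at 38.2 and 17.6%, Arc had 0 UMIs in 688 nuclei, which by the limit of 3 counts allows a share of up to 0.436% of nuclei with a UMI, at a median depth of 1751 UMIs. Homer1 varied little between libraries: 561, 429, 407 and 491 CPM in CA1, 309, 328, 297 and 320 in CA3, 128, 156, 140 and 155 in DG-M, and 19.2 to 36.5 in MG. It was detected in 97.1% of CA1 and 4.94% of MG nuclei.

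**Figure D1:**
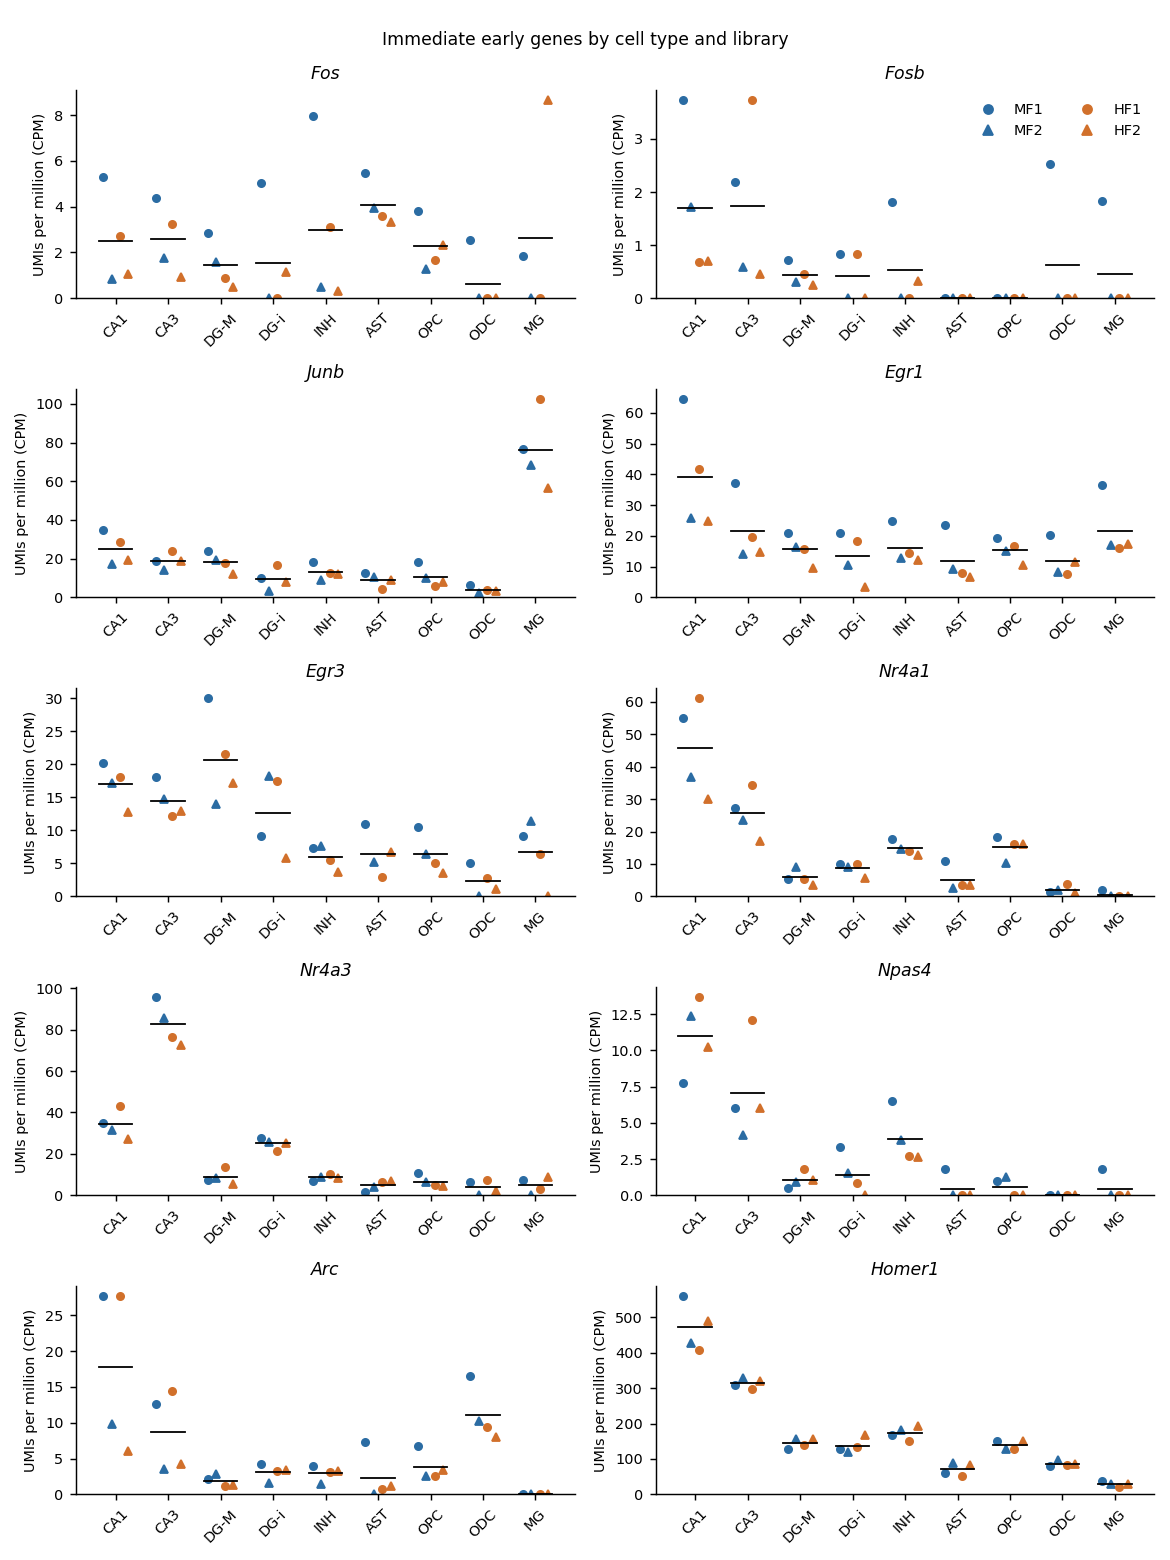
Levels of the 10 genes (CPM of summed UMIs, vertical axis of each panel) in 9 marker-defined types (horizontal axis). Each symbol is 1 library (blue MF, orange HF, circles replicate 1, triangles replicate 2) and black bars are means of the 4 libraries; Arc, Egr1, Nr4a1 and Homer1 peak in CA1, Nr4a3 in CA3 and Junb in MG, where the 4 libraries sit between 56.2 and 103 CPM.

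Do the fields of the hippocampus differ in these genes once the library is taken into account? The same 4 libraries gave every type, so type comparisons were made within libraries with edgeR's quasi-likelihood test, and a gene was called at an adjusted p under 0.05 and at least 1.2-fold. Between CA1 and DG-M, 6 of the 10 genes passed the low-count filter in both types, and 5 of these were higher in CA1 and none lower, against 22.7% of all genes higher and 24% lower. Nr4a1 was 8.94-fold higher (log2 difference 3.16 ± 0.16, SE, edgeR adjusted p = 1.07e-26), with all 4 CA1 libraries above all 4 DG-M libraries. Nr4a3 (4.34-fold), Homer1 (3.56-fold) and Egr1 (2.79-fold) were also higher in 4 of 4 libraries. Junb differed by only 1.53-fold, in 3 of 4 libraries (edgeR adjusted p = 0.000156), with overlapping ranges, and DESeq2 did not call it (adjusted p = 0.0538). Egr3 did not pass the test (log2 −0.16 ± 0.15, edgeR adjusted p = 0.391). Arc and Npas4 passed the low-count filter only through CA1, where they were high, so that they could only be called higher and their values are given as a description. Arc had 210 UMIs in CA1 and 28 in DG-M (log2 3.48 ± 0.27, 11.1-fold), and Npas4 had 123 and 17 (3.43 ± 0.31, 10.8-fold). Fos and Fosb had too few counts to be tested.

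CA3 differed from DG-M with Nr4a3 in the lead. Of the 6 genes that passed the filter in both types, 4 were higher and 1 lower, against 21.8% and 22.3% of all genes. Nr4a3 was 10.1-fold higher (log2 3.33 ± 0.15), Nr4a1 4.87-fold and Homer1 2.34-fold, each in 4 of 4 libraries. Npas4 (7.06-fold) and Arc (5.21-fold), which entered only through CA3, are given as a description. Egr1 was 1.48-fold higher in 3 of 4 (edgeR adjusted p = 0.00604), a call that was lost under DESeq2, without the library term (edgeR adjusted p = 0.103) and without MF1. Egr3 was 1.33-fold lower in 3 of 4 (log2 −0.41 ± 0.17, edgeR adjusted p = 0.0441), and that call was lost under DESeq2, without the library term, at a finer clustering and without MF1, HF1 or HF2. Without the library term Arc fell below the low-count filter and was not tested, and with Npas4 counted 4 calls were left of 7. Set directly against CA1, CA3 had more Nr4a3 (2.35-fold, log2 1.23 ± 0.11) and less Arc (2.06-fold), Egr1 (1.87-fold), Nr4a1 (1.82-fold) and Homer1 (1.53-fold), each in 4 of 4 libraries, where 13.6% of genes were higher and 13.7% lower. The Arc call was lost without the library term (edgeR adjusted p = 0.112). Junb and Npas4 were lower in CA3 in 4 of 4 libraries without passing the test (edgeR adjusted p = 0.0577 and 0.0595).

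Within the dentate gyrus, the immature nuclei had more Nr4a3 and less Junb and Egr3. Against DG-M, 25% of all genes were higher in DG-i and 20.9% lower. Nr4a3 was 2.49-fold higher (log2 1.31 ± 0.23, edgeR adjusted p = 2.29e-05, 4 of 4 libraries), Junb was 2.04-fold lower (log2 −1.03 ± 0.26, 4 of 4) and Egr3 was 1.95-fold lower (log2 −0.97 ± 0.25, 3 of 4), the last lost without MF1 and at a finer clustering. Homer1 differed by 1.2-fold, under the minimum, and Egr1 and Nr4a1 did not pass. Arc, Npas4, Fos and Fosb were too sparse in DG-i, whose median nucleus had 3109 UMIs.

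Of the 7 genes that passed the low-count filter in both inhibitory neurons and EXC, 6 were lower in INH and none higher. Of all genes, 20.2% were lower and 22.9% higher. Arc, Fos and Fosb entered only through EXC, so their values are given as a description. Nr4a3 was 3.94-fold lower (log2 −1.98 ± 0.13), Egr3 3.03-fold (−1.60 ± 0.18) and Homer1 1.64-fold (−0.71 ± 0.06). Arc, as a description, was 2.66-fold lower (−1.41 ± 0.27). Junb, Nr4a1 and Egr1 were lower by 1.52-, 1.48- and 1.47-fold. These 6 genes and Arc were each lower in 4 of 4 libraries, and the Egr1 call was lost without the library term (edgeR adjusted p = 0.128). Fos (log2 0.53 ± 0.38), Fosb (−0.93 ± 0.67) and Npas4 (−0.42 ± 0.29) did not pass.

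In glia most of the genes entered the test only through EXC, where they were high, so that the counts below describe these libraries and are not evidence. Homer1 alone passed the low-count filter on the counts of AST, and likewise of ODC, Egr1, Nr4a1 and Homer1 passed it in OPC, and Junb alone in MG. In AST, 8 of the 9 tested were lower (32% of all genes were lower and 28.9% higher): Nr4a3 by 6.91-fold, Nr4a1 by 5.28-fold, Arc by 5.19-fold, Homer1 by 4.27-fold, Egr3 by 3.27-fold, Junb by 2.53-fold and Egr1 by 2.32-fold, and Npas4 with a single UMI (EXC to AST ratio 18.8, counting interval 3.34 to 748). Fos was higher in AST in 4 of 4 libraries but did not pass the test (log2 1.06 ± 0.52, edgeR adjusted p = 0.0742). OPC had 8 lower genes of 9 (26.9% of all genes lower, 27.2% higher), among them Nr4a3 at 5.67-fold and Nr4a1 at 1.61-fold, and Npas4 with 2 UMIs (ratio 10.2, counting interval 2.78 to 84.6). The OPC call for Arc (2.44-fold) was lost without HF1 (edgeR adjusted p = 0.107) and without the library term.

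Oligodendrocytes were lower in 7 of 9 (35.9% of all genes lower, 25.8% higher), with Nr4a1 10.3-fold, Nr4a3 7.35-fold, Egr3 7.17-fold and Junb 4.98-fold lower, and Npas4, at 0 UMIs, at least 5.60-fold lower by the limit of 3 counts over the group. Arc did not pass the test against EXC (log2 0.38 ± 0.31, edgeR adjusted p = 0.299). Microglia were lower in 6 of 9 genes (35.8% of all genes lower): Homer1 by 13.5-fold, Nr4a3 by 8.69-fold, Egr3 by 3.70-fold, Arc by at least 3.54-fold, Nr4a1 with 1 UMI (ratio 27.9, counting interval 4.99 to 1102) and Npas4 with 1 UMI (ratio 6.64, interval 1.18 to 263), whose call was lost without HF1 (edgeR adjusted p = 0.0565). Junb alone was higher, by 2.66-fold in 4 of 4 libraries (log2 1.41 ± 0.21, edgeR adjusted p = 5.84e-11), against 25.1% of all genes higher. Of 13 genes of the response that microglia mount during tissue dissociation, none was at 0 in MG, where their summed level was 245 to 336 CPM against 23.6 to 30.5 in EXC, and their part in the Junb level was not tested. Markers of excitatory neurons were themselves at 25.5 to 38.2% of their EXC level in the 4 glial types, and the part of such RNA in the low glial counts was not tested.

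**Figure D2:**
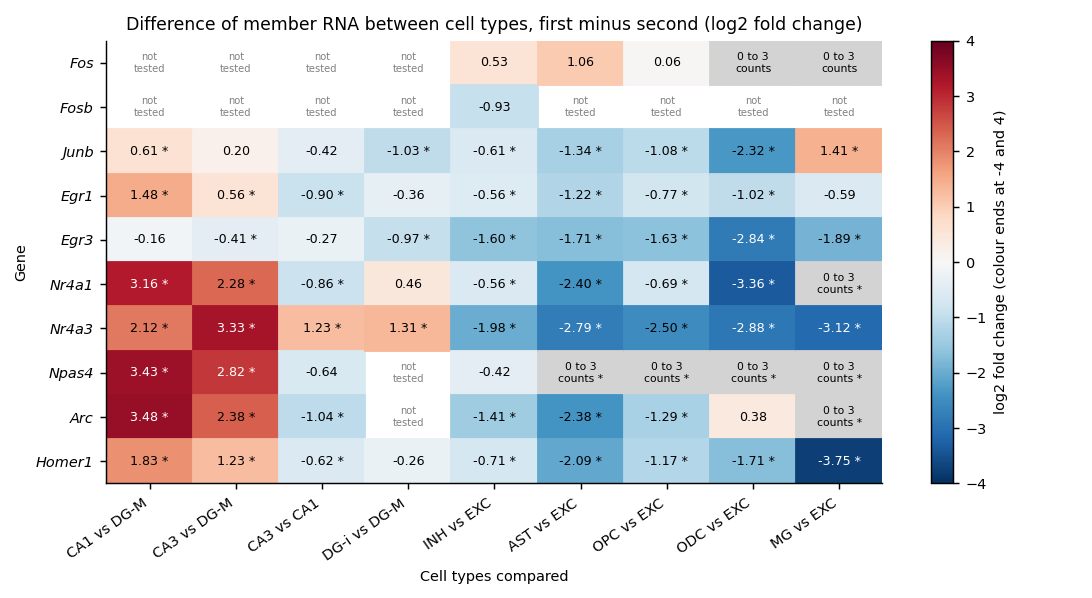
Grid of log2 differences in summed RNA (colour scale) of the 10 genes (one axis) in 9 comparisons of types (the other axis), first type minus second. An asterisk marks a call (edgeR, adjusted p under 0.05 and at least 1.2-fold), and grey marks 0 to 3 counts in the first type. Most glial genes, and Arc and Npas4 in CA1 or CA3 vs DG-M, passed the low-count filter only through the type where they were high. Their asterisks are a description. The CA1 vs DG-M values run from −0.16 for Egr3 to 3.48 for Arc. Junb in MG, the only gene that passed the filter on MG counts, is the only glial value called higher.

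Other genes of the response moved in both directions between CA1 and DG-M, where 22.7% of all genes were higher and 24% lower. Of 16 other rapid-response regulators tested, 6 were higher and 5 lower, with a median log2 difference of 0.00 against −0.03 for all genes. Trib1, a pseudokinase, was higher (1.72) and Nr4a2, the remaining NR4A receptor, was higher (1.58), whereas Btg2, an antiproliferative regulator, and Jun, an AP-1 subunit, were lower (−2.33 and −1.67). Of 21 later activity effectors, 9 were higher and 5 lower (median 0.25), led by the sorting receptor Sorcs3 (3.48), the MAP kinase phosphatases Dusp6 (3.17) and Dusp5 (2.23) and the pentraxin Nptx2 (2.79). Of 28 upstream kinases, channels and transcription factors, 6 were higher and 13 lower (median −0.21), with Mef2c (−2.74) and the ERK1 gene Mapk3 (−2.07) lower in CA1. Among 13 genes of Homer and its partners, 7 were higher and 5 lower (median 0.28), and the paralogue Homer2 was higher (2.95).

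Of the later effectors in CA3, 11 of 21 were higher and 6 lower than in DG-M (median 0.42, against 21.8% of all genes higher and 22.3% lower), with Dusp5 (3.03), Ptgs2, which encodes cyclooxygenase-2 (2.73), and Dusp6 (2.00) higher and Mapk4 lower (−2.37). The study itself uses Ptgs2 as a marker of the hippocampal subregion that includes CA3. In DG-i none of 19 later effectors was higher than in DG-M and 11 were lower (median −0.89, against 25% and 20.9% of all genes), among them Sorcs3 (−2.84), Ptgs2 (−1.80), Inhba (−1.58) and the neurotrophin Bdnf (−1.41). On DG-i counts alone 13 later effectors passed the low-count filter, so some of the 19 entered only through DG-M. INH had 6 of 22 higher and 11 lower than EXC (median −0.40, against 22.9% and 20.2% of all genes), with Bdnf lower (−2.04) and the receptor Gpr3 higher (2.01). In ODC, 20 of 21 were lower (median −2.61), against 35.9% of all genes, but on ODC counts alone 8 later effectors passed the low-count filter. In MG, 5 of 23 other rapid-response regulators were higher and 7 lower, shares near those of all genes (25.1% higher and 35.8% lower), and the higher ones included Atf3 (4.90), Klf4 (4.38) and Trib1 (3.37), while Klf10 was lower (−2.27). On its own counts INH passed 17 later effectors, and MG passed 6 of the other rapid-response regulators. Listed genes that entered a comparison only through the type where they were high could be called in 1 direction only. These lists were also drawn up with earlier results of the same libraries known, so their counts are descriptions.

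How many nuclei hold several of these RNAs at once depends first on depth. Homer1 was left out because nearly every CA1 nucleus holds it, and 2 or more of the other 9 were counted. Without thinning, the share was 70.8, 44.6, 65.7 and 43.9% of CA1 nuclei and 73.0, 57.1, 67.9 and 55.9% of CA3 nuclei, but those types also had the deepest nuclei (medians 12868 and 18676 UMIs). With each nucleus thinned to 2000 UMIs the share in CA1 became 8.85, 2.69, 8.96 and 3.77% and that in CA3 7.07, 9.89, 5.61 and 2.94%. DG-M had 2.43, 1.32, 1.73 and 0.642%, below the CA1 value of the same library in all 4, and INH had 1.88, 0.671, 2.65 and 0%. At 4000 UMIs, 57.1, 60.0, 66.7 and 75.0% of the INH nuclei with at least 2 of the 9 exceeded the doublet score, against 19.2 to 25.0% of those with none, and leaving them out took the 7, 5, 6 and 4 nuclei to 3, 2, 2 and 1. At 2000 UMIs the mean INH share was 1.05% without doublets and 1.30% with them. In ODC no thinned nucleus of 618 held 2 of the 9. MG is poorly covered by this count, since 466 of its 688 nuclei had under 2000 UMIs.

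**Figure D3:**
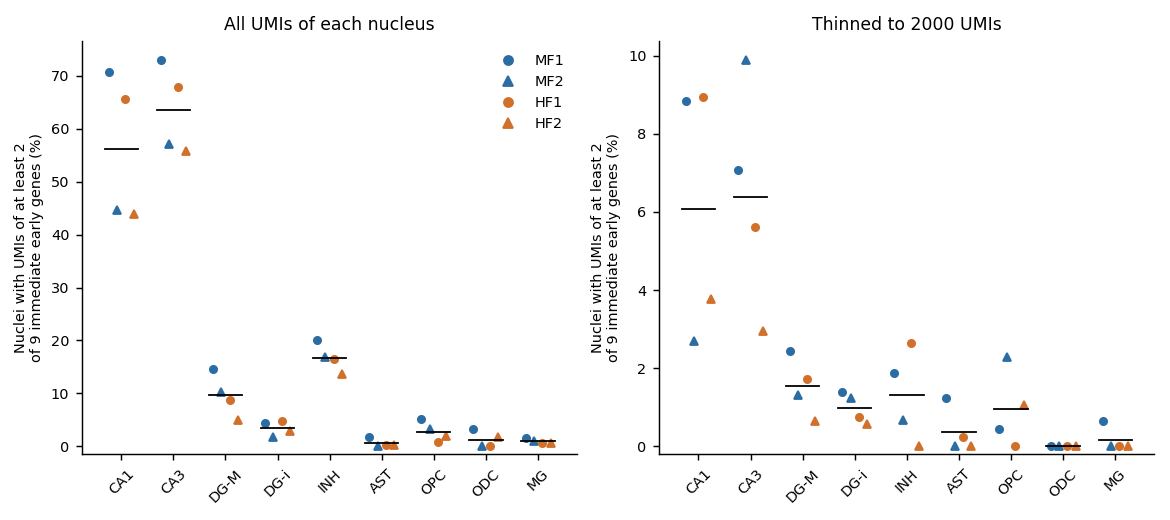
Share of nuclei (percent, vertical axis) with UMIs of at least 2 of the 9 genes other than Homer1, by type (horizontal axis), without thinning and thinned to 2000 UMIs a nucleus. Symbols are libraries as in the plot of levels; CA1 falls from 43.9 to 70.8% without thinning to 2.69 to 8.96% with it.

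In CA1, with 4000 UMIs a nucleus, most pairs of these genes showed no constant direction. Of the 21 pairs among the 7 genes present in every library (all but Fos, Fosb and Homer1), 2 were higher in 4 of 4 libraries, 1 was lower in 4 of 4 and 18 were mixed. With libraries pooled, 14 pairs were higher and 7 lower. Nr4a3 was present in 18.0% of nuclei with Nr4a1 and in 10.8% of those without, higher in 4 of 4 libraries. Arc was present in 13.9% of nuclei with Junb and in 6.60% of those without, again in 4 of 4, from 11 nuclei holding both. Nr4a3 was less frequent in nuclei with Egr1 (7.34%) than in those without (12.6%) in 4 of 4. These shares have no test, and nuclei of 1 library are not replicates.

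Which other genes differ in CA1 nuclei that hold several of the 9? After thinning to 4000 UMIs, the libraries gave 50, 20, 37 and 12 nuclei with at least 2 of the 9 and 87, 101, 90 and 130 with none, summed per library and compared within libraries. Of 5508 genes tested, 14 were called by edgeR (0.254%), 8 higher and 6 lower, and DESeq2 called 1. Higher genes included the neurotrophin receptor Ntrk2 (log2 0.66 ± 0.13, edgeR adjusted p = 0.0016), the kinase Lrrk2 (1.47 ± 0.37, 0.0416), the RNA 1700016P03Rik (1.59 ± 0.39), 2900097C17Rik (0.84 ± 0.22) and Zfp804a (0.52 ± 0.13). Lower genes included the synaptic adhesion gene Lingo2 (log2 −1.26 ± 0.15, edgeR adjusted p = 1.5e-12), the protocadherin Pcdh7 (−0.99 ± 0.17, 1.64e-05), the sorting receptor Sorcs2 (−1.84 ± 0.47), the netrin receptor Dcc (−0.46 ± 0.11) and March1 (−0.42 ± 0.11). Each of these moved the same way in 4 of 4 libraries. Lingo2 was called in 9 of 10 alternatives, Pcdh7 in 7 and Ntrk2 in 6, while Sorcs2 and 2900097C17Rik were called in 1 and March1 in none. The CA1 nuclei pooled clusters of 393 and 432 nuclei. How these clusters were mixed in nuclei with several of the 9 and in nuclei with none was not tested.

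The RNA of the scaffold Homer1 itself was higher in these nuclei in 4 of 4 libraries without passing the test over all genes: 650, 513, 453 and 605 CPM against 489, 366, 406 and 431 (log2 0.35 ± 0.14, edgeR adjusted p = 0.494). The mitochondrial genes mt-Atp6 (0.59 ± 0.15) and mt-Co3 (0.56 ± 0.13) were among those called higher, and the sum of mitochondrial UMIs was 2852, 3389, 3442 and 3544 CPM in nuclei with several of the 9 against 1920, 2691, 2317 and 2313 in nuclei with none. The heat-shock list was likewise higher in 4 of 4 libraries (1256, 825, 974 and 876 CPM against 704, 812, 897 and 644). The part of either in the 14 calls was not tested.

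The same comparison had under 10 nuclei in a library in DG-M and INH, and 9 in 1 CA3 library, so it was made there with at least 1 of the 9, a choice added after the data were seen. It called 5 genes in CA3 (0.114% of those tested), among them the adhesion gene Kirrel3 (log2 −0.64 ± 0.14), Tenm2 (−0.33 ± 0.06) and Stxbp5l (0.38 ± 0.09), 16 in DG-M (0.172%) and 14 in INH (0.195%). In DG-M, Sorcs3 was higher, 2.03-fold in 4 of 4 libraries (log2 1.02 ± 0.15, edgeR adjusted p = 6.35e-07), as were Samd4 (1.18 ± 0.24) and Mir670hg (0.82 ± 0.18), and Chst9 was lower (−0.59 ± 0.11). The DG-M calls also held 4 haemoglobin genes, whose sum was 5049 against 1111 CPM in MF1 but 265 against 279, 278 against 236 and 236 against 228 in MF2, HF1 and HF2, and 6 mitochondrial genes. The chaperone Hsp90aa1 was called higher (0.38 ± 0.08), and the heat-shock list was higher in 4 of 4 libraries (1318, 1024, 1032 and 904 CPM against 1099, 853, 951 and 732). Their part in the other DG-M calls was not tested. The DG-M nuclei pooled clusters of 586, 341, 374 and 566 nuclei, and the part of that mix was not tested either. DESeq2 called 0 genes in CA3 and DG-M and 1 in INH. In INH more of the nuclei holding at least 1 of the 9 exceeded the doublet score than of those with none in 3 of 4 libraries (for example 43.5 against 19.2% in MF2 and 52.8 against 20.8% in HF1), and Tafa1 (1.08 ± 0.16) and Ryr3 (1.03 ± 0.17) were higher there. The INH calls were 7 higher and 7 lower. The lower ones held Hba-a2 (−1.33 ± 0.27) and Hba-a1 (−1.24 ± 0.26), and the haemoglobin sum was 787 against 2486 CPM in MF1, 185 against 204 in MF2, 292 against 203 in HF1 and 162 against 189 in HF2. Unlike in DG-M, the heat-shock list was lower in INH nuclei with at least 1 of the 9 in 4 of 4 libraries (1132, 805, 834 and 743 CPM against 1137, 906, 943 and 783).

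Was the promoter of each gene open in proportion to its RNA? Promoter accessibility was read as ATAC counts, also scaled to CPM, over the region that covers the principal GENCODE start, with regions merged across libraries and kept where all 4 had a peak, and was tested with edgeR at an adjusted p under 0.05. Of the 10 genes, 9 have such a region, and Homer1, whose GENCODE start lies downstream of the RefSeq start used above, has a region only within 1000 bp of it. Between CA1 and DG-M the promoters of Arc, Npas4 and Nr4a3 did not pass the test. The Arc promoter (chr15:74672165-74673066, mm10, − strand gene) had 57.8, 40.7, 49.9 and 43.4 CPM in CA1 against 42.4, 38.2, 48.1 and 42.5 in DG-M (log2 0.10 ± 0.09, edgeR adjusted p = 0.307). The Npas4 promoter (chr19:4989615-4990473) had 37.9, 32.9, 38.2 and 36.7 against 38.2, 33.3, 36.2 and 38.1 (log2 −0.05 ± 0.09), and the Nr4a3 promoter (chr4:48044570-48045517) differed by 0.02 ± 0.10. The RNA of Nr4a3 differed by 4.34-fold, a gene that passed the RNA filter in both types.

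The Nr4a1 promoter shown above (region chr15:101266257-101267160) was the one higher in CA1, with 33.3, 29.7, 49.2 and 30.7 CPM against 27.7, 21.8, 26.1 and 24.7 in DG-M (log2 0.44 ± 0.11, edgeR adjusted p = 0.000659), where 30% of all regions were higher and 30.5% lower. Its RNA differed by 8.94-fold. Fosb and Egr3 promoters were lower in CA1 (log2 −0.49 ± 0.10 and −0.48 ± 0.10), in 4 of 4 libraries each. Across the 9 types the highest mean CPM of the Nr4a1 promoter was in OPC, 47.5 to 60.2 CPM, and the lowest in ODC, 4.86 to 14.3. Ranked among all shared regions of a type, it stood at percentile 98.4 in CA1 and 97.5 in OPC.

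In inhibitory neurons, set against EXC as a whole, accessibility and RNA pointed different ways for Egr1 and Nr4a1. EXC pools types that differ: Nr4a1 RNA in INH (17.7, 14.6, 14.1 and 12.9 CPM) was below every CA1 library and above every DG-M library. The mean of Egr1 RNA was 16.1 CPM in INH, 15.7 in DG-M and 39.2 in CA1. Against EXC, the promoters of Fos (log2 0.49 ± 0.10), Egr1 (0.48 ± 0.09) and Nr4a1 (0.33 ± 0.10) were higher in INH (26.2% of regions were), while the RNA of Egr1 and Nr4a1 was lower and that of Fos did not pass. Egr3 was lower in both readouts (−0.77 ± 0.11 at the promoter, 29.3% of regions being lower). The Junb (0.21 ± 0.08) and Arc (−0.29 ± 0.09) promoters were also called, Junb in 2 of 8 alternatives and Arc not without HF1 or HF2.

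In glia some promoters were near 0 and others were above EXC. Npas4, at 32.7 to 35.6 CPM in EXC, had 0 to 1.44 in AST and 0 to 1.13 in MG, and Egr3, at 27.2 to 32.5 in EXC, had 0.552 to 1.51 in AST. Fos, by contrast, had 63.4, 47.2, 65.9 and 53.8 CPM in AST against 31.2, 21.8, 27.3 and 22.1 in EXC (log2 1.58 ± 0.11, edgeR adjusted p = 2.58e-47), and Egr1 was also higher in AST (1.51 ± 0.10). In AST, 22.4% of regions were higher and 53.1% lower. The Junb promoter (chr8:84978320-84979150) had 95.5, 75.0, 94.0 and 88.8 CPM in MG against 43.7, 34.4, 40.5 and 39.8 in EXC (log2 0.89 ± 0.10, edgeR adjusted p = 1.18e-17), the direction of its RNA, where 11.8% of regions were higher and 72.1% lower.

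The MG calls for Fos (0.61) and Egr1 (0.66) and the AST call for Fosb (0.78) were lost under another scaling and under DESeq2. The Egr1 value in MG changed sign, to −0.054, with regions within 1000 bp summed. The median log2 of all regions was −1.58 in AST and −4.08 in MG with the main scaling, and the other scaling moved it by a further −0.575 and −0.479, so glial sizes are relative to that choice. Arc in ODC, whose RNA did not differ from EXC beyond its error, had the highest Arc promoter mean of the 9 types: 70.1, 69.5, 69.2 and 66.8 CPM against 40.8, 36.9, 43.6 and 38.6 in EXC, with no overlap. In MG, with no Arc UMI, it had 7.60 to 17.1 CPM. By rank among all shared regions of a type, ODC did not lead. The Arc promoter stood at percentile 98.5 in ODC and 98.2 in EXC, but at 99.5 in CA1. CA3 also ranked above ODC, and the other types ranked below it. The ODC promoter value was not tested between types.

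**Figure D4:**
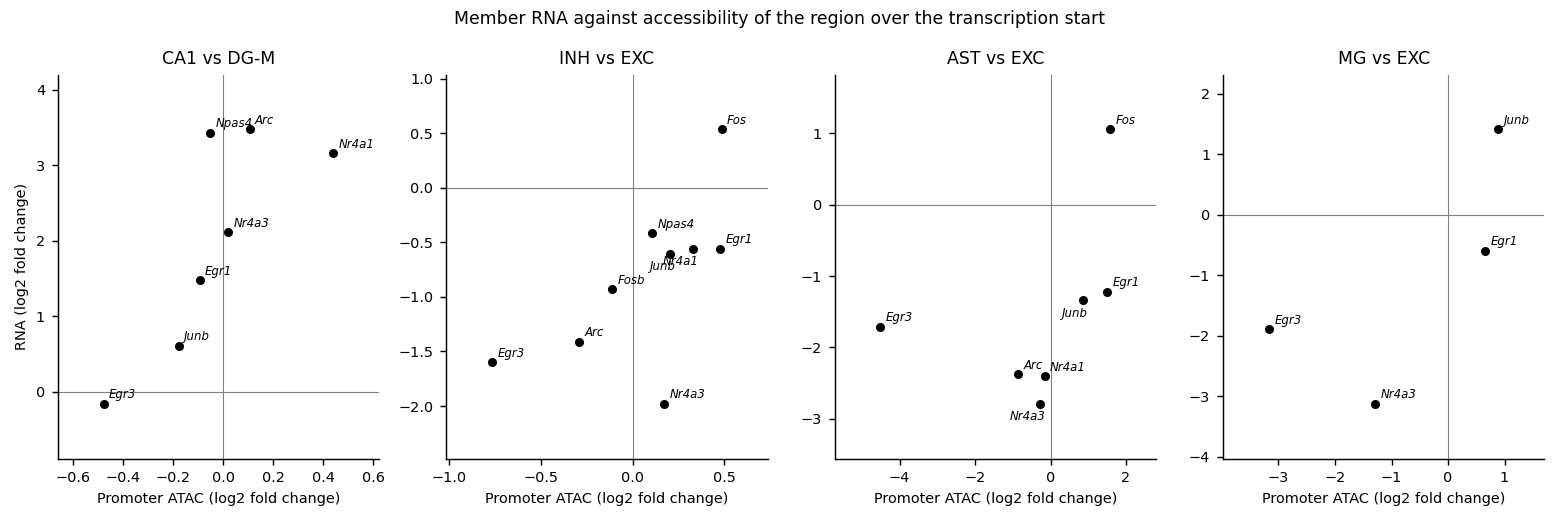
Log2 difference in RNA (vertical axis) against log2 difference in ATAC counts over the promoter region (horizontal axis) for each gene in CA1 vs DG-M and in INH, AST and MG vs EXC. Points are genes, and genes with 0 to 3 UMIs in the first type are left out; in CA1 vs DG-M, Nr4a1 and Nr4a3 lie at RNA differences of 3.16 and 2.12 with promoter differences of 0.44 and 0.02, and many glial points are of genes that passed the RNA filter only through EXC.

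The diets were compared in each type with the 2 libraries of each. The low-count filter left 10 of the genes in EXC, 8 in CA1 and in CA3, 7 in INH, 6 in DG-M and in DG-i, 3 in OPC and 1 in each of AST, ODC and MG. None of those tested was called in its group by edgeR or by DESeq2, and none had an unadjusted edgeR p under 0.05. The background was as low: 0% of all genes called in 8 of these groups, 0.0401% in OPC and 0.0364% in MG. In EXC, where all 10 could be tested, 165 of 15264 genes had an unadjusted p under 0.05, and the median log2 difference of the 10, HF minus MF, was −0.10. Fos had the largest value, 4.09 and 1.23 CPM in MF against 1.68 and 0.791 in HF (log2 −1.05 ± 0.53, edgeR unadjusted p = 0.0675, adjusted p = 1), with overlapping groups, and 0.016 without MF1. Egr1 had 37.0 and 18.1 against 23.9 and 14.8 (log2 −0.44 ± 0.27). Npas4 had the opposite sign, 4.18 and 4.92 against 7.08 and 4.55 (0.43 ± 0.31), and Homer1 and Nr4a3 differed by 0.01 ± 0.21 and 0.01 ± 0.16.

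Among the types, Npas4 differed in sign. In CA3 it had 6.02 and 4.14 CPM in MF against 12.1 and 6.03 in HF (log2 0.90 ± 0.48, edgeR unadjusted p = 0.0875), and in INH 6.52 and 3.78 against 2.73 and 2.64 (−0.90 ± 0.51, edgeR unadjusted p = 0.103). The difference of its diet response between INH and EXC was −1.34 ± 0.55, with an edgeR adjusted p of 0.997. No diet-by-type term was called for any of the 10 in CA1 vs DG-M, INH vs EXC, AST vs EXC or MG vs EXC, where 0, 0.0133, 0 and 0.0937% of all genes were. In DG-M, Junb (24.1 and 19.3 against 18.0 and 11.8 CPM) and Egr1 (21.0 and 16.4 against 15.7 and 9.51) had MF libraries above both HF libraries (log2 −0.46 ± 0.25 and −0.49 ± 0.27), as 23.2% of all genes in DG-M had groups that did not overlap in either direction. In CA3, 4 of 8 tested genes had groups that did not overlap, against 29% of all genes, with Junb and Npas4 higher in HF and Nr4a3 and Egr3 lower. The count was 0 of 10 in EXC (21.5% of all genes), 0 of 8 in CA1 (26.1%), 2 of 6 in DG-i (29.5%) and 3 of 7 in INH (25.2%). No other gene of the response lists was called for diet in any type. At the promoters, none of the 9 regions was called in EXC, CA1 or DG-M (0.00132, 0 and 0.000817% of regions were), with log2 differences of −0.08 to 0.16 in EXC.

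**Figure D5:**
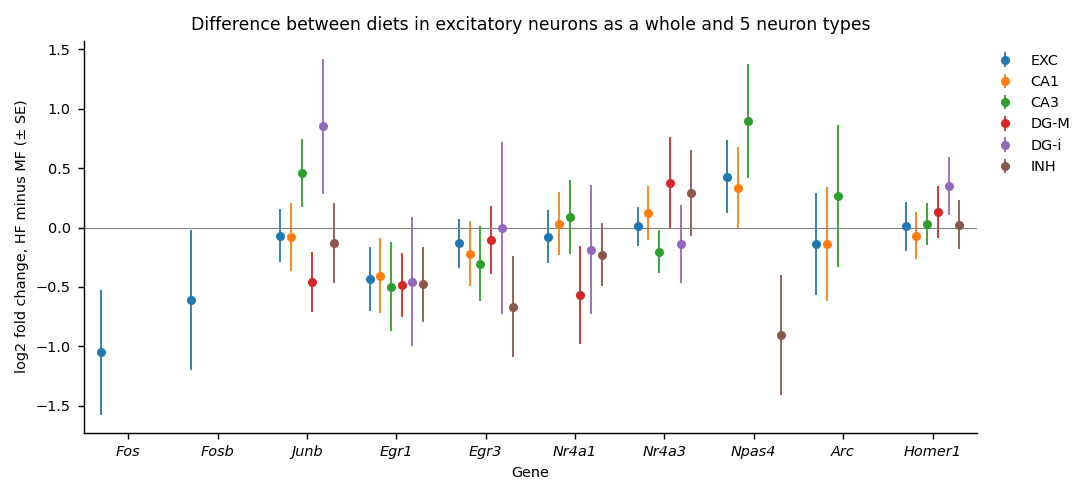
Log2 difference in RNA, HF minus MF (vertical axis, with SE bars), of each tested gene (horizontal axis) in EXC, CA1, CA3, DG-M, DG-i and INH. Points are edgeR estimates from 2 libraries a diet; none was called, and in EXC they run from −1.05 for Fos to 0.43 for Npas4.

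In EXC and CA1, though not in every type, the first library of both diets stood above the second for most of the genes. In EXC, MF1 and HF1 both stood above MF2 and HF2 for 8 of the 10 genes (Fos, Fosb, Junb, Arc, Egr1, Egr3, Nr4a1 and Nr4a3), an order held by 41.8% of all genes tested, and in CA1 for 6 of 8 tested, against 31%. In CA3 the order held for 3 of 8 (31.6% of all genes), in DG-i for 3 of 6 (30.4%), in INH for 2 of 7 (35%) and in DG-M for 1 of 6 (40.2%). None of the 10 had the reverse order in EXC. Arc, for example, had 12.2 and 11.5 CPM in EXC of MF1 and HF1 against 5.05 and 3.56 in MF2 and HF2. The heat-shock list moved the same way, with 1115 and 986 CPM in MF1 and HF1 against 857 and 715, as did the markers of excitatory neurons (2942 and 2507 against 2186 and 1993), and their part in the order was not tested. The labels do not say that a replicate number marks a shared day, litter or batch.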

How the data were processed

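Nuclear RNA and open chromatin of the same nuclei were measured in 4 libraries, 2 per diet. The authors made the deposited counts with Cell Ranger ARC 2.0.1 on mm10, per the submitters' processing notes: UMI counts of each gene in each nucleus, and ATAC counts of each peak, peaks being called library by library; neither was normalized. The filters asked for 500 to 7000 genes in a nucleus, less than 2% of its UMIs from mitochondrial genes, and between 1000 and 70000 ATAC counts. Nuclei were clustered with Scanpy 1.11.5 on 3000 variable genes from which 60 activity genes were left out (20 principal components, Leiden resolution 0.8, and 0.5 within EXC), and named from fixed markers. UMI counts were summed per type and library and tested with edgeR 4.0.16 (TMM, filterByExpr, quasi-likelihood test) over all genes, with Benjamini-Hochberg adjustment; type comparisons carried a library term. Log2 standard errors were derived from the F statistic. ATAC peaks of the 4 libraries were merged into 253724 regions, of which 154783 held a peak in all 4 and were kept. The low-count filter left fewer regions in each test, for example 151351 for diet in EXC and 114178 in CA1. Promoter regions were assigned with GENCODE starts on GRCm38, and sequences came from RefSeq (GRCm38.p6).

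Nothing in the sources used here says whether replicates came from separate litters, so p-values measure the spread between these libraries. Shares of nuclei have exact binomial intervals, which cover counting error only, as does the limit of 3 counts that a count of 0 allows. Thinning drew a fixed number of UMIs per nucleus at random, without replacement. Alternatives were DESeq2 1.42.0, RLE scaling, no low-count filter, each library left out, a replicate block, no library term, doublets left out (score over 0.05), activity genes returned to the clustering, a finer clustering (Leiden 1.6, and 1 within EXC), no fold minimum, and promoter regions within 1000 bp summed. The scripts were tested on simulated data. By rule all 10 genes could be named, up to 4 called genes of each list with the largest change in a comparison, and up to 12 genes outside the lists in the comparison of nuclei with several of the 9, called and moving the same way in 4 of 4 libraries. The genes, lists and tests were chosen with earlier results of these data known. Some genes that the rule names are not reported here. Sequencing reads and ATAC fragments were not used here.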

Additional observations from a re-analysis of the deposited data

How the results depend on the processing

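The counts of the tested genes called for diet stayed at 0 in each group of nuclei under each alternative run, the replicate block included, with 1 gene tested in AST, ODC and MG and 3 in OPC. The replicate numbers are not said to pair the libraries. Same-numbered libraries deviated together in EXC (r = 0.279 across 15264 genes), DG-M (0.245), AST (0.204) and CA1 (0.131), with 2 pairs only, and the pairing was not used. Of values that answer a comparison, 357 stayed within the spread of their main value and 40 moved. Of single-gene results, 920 kept their direction and side of the threshold, 33 kept the direction and lost the call, and 15 changed sign. The Egr1 promoter in MG against EXC, 0.66 in the main analysis, was −0.054 with regions within 1000 bp summed. The other 14 were diet differences in EXC, none called, and Npas4 alone kept its sign over its 12 alternatives (0.15 to 0.64). Without MF1, Fos became 0.016, Fosb 0.16, Junb 0.20, Arc 0.57, Egr1 0.092, Egr3 0.083, Nr4a3 −0.055 and Homer1 −0.0047. Without HF2, Junb became 0.11, Arc 0.41, Nr4a1 0.22 and Homer1 −0.20. Nr4a3 became −0.082 without HF1 and Homer1 −0.0038 with the replicate block. Over the 12 alternatives Fos ranged from −1.61 to 0.016, Fosb from −1.57 to 0.16, Junb from −0.29 to 0.20, Arc from −1.13 to 0.57, Egr1 from −0.80 to 0.092, Egr3 from −0.31 to 0.083, Nr4a1 from −0.47 to 0.22, Nr4a3 from −0.082 to 0.094 and Homer1 from −0.20 to 0.19.

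The mean share of nuclei with at least 2 of the 9 moved with depth: thinned to 1000 UMIs it was 2.73% in CA1, 1.19% in CA3, 0.355% in DG-M and 0.085% in DG-i; thinned to 4000 UMIs 14.3, 14.9, 3.23, 2.34, 2.96 and 1.14% in CA1, CA3, DG-M, DG-i, INH and AST; not thinned 56.2, 63.5, 9.62, 3.42 and 16.7% in CA1, CA3, DG-M, DG-i and INH. Thinned to 2000 UMIs, the main depth, it was with Homer1 included 23.1, 13.4, 4.45, 4.0, 4.43 and 1.42% in those 6 types. Leaving out a library gave 5.10 to 7.19% in CA1, 5.21 to 7.52% in CA3, 1.23 to 1.83% in DG-M, 0.845 to 1.12% in DG-i, 0.850 to 1.73% in INH and 0.0782 to 0.487% in AST.

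CA3 against DG-M gave 4 called genes of the 10 without the library term, and 5 to 7 without one library. The 14 genes of CA1 nuclei with several of the 9 became 1 with DESeq2, 6 with no low-count filter, 7 without doublets, 32 without thinning and 1 to 10 without one library. With at least 1 of the 9, CA3 gave 0, DG-M 0 and INH 1 with DESeq2, DG-M gave 42 with no low-count filter, and leaving out a library gave 4 to 9, 7 to 27 and 5 to 16. CA1 against DG-M gave 5 promoters with regions within 1000 bp summed. Thinning to 2000 UMIs and at least 3 of the 9 were not run in CA1 nuclei, since a library then had under 10 nuclei. Each cause was not tested. The limits are depth and number: 2 libraries per diet, 81 UMIs of Fos and 44 of Fosb in all EXC nuclei, and 99 of Junb in MG. The simulated data held known changes at a fixed spread between libraries. What size of diet difference could be shown at the observed spread was not tested.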
